A study of Mus musculus with 32 samples.

Results

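Regulatory T cells (Tregs) stimulated for 36 h with a TNFR2 agonist were compared with Tregs stimulated for 36 h without an agonist, across all genes, in 6 of the 32 RNA-seq libraries of the series. The 6 libraries were taken by their titles and time label alone, 3 per group. The comparison, its gene lists and the named genes were chosen with earlier results of these data known. All Tregs were purified from 2.5-month-old C57BL/6 mice that carry a Foxp3-IRES-GFP knock-in, in which GFP marks cells that express Foxp3. Both groups were stimulated for 36 h by plate-coated CD3 and CD28 antibodies, and their medium held 10 ng/ml of mouse IL-2. The agonist group also received TNC-sc(mu)TNF80, called STAR2, at 12 ng/ml, a modified form of mouse TNF that engages TNFR2. The control group received no agonist, and both groups carried the knock-in allele. Nothing in the labels says whether the replicates came from separate animals or separate cultures. The p-values below therefore measure only the spread between replicate libraries, which may be technical. That spread was estimated over all 32 libraries of the series. The cultures are of purified cells, without the tissue that surrounds Tregs in the body. Marker transcripts of other cell types were still detected, at the levels given below.

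TNFR2, encoded by Tnfrsf1b, is a receptor for TNF that lacks a death domain and is carried at high level by activated Tregs. Its cytoplasmic tail recruits TRAF2 with cIAP ubiquitin ligases, which relay the signal to IkB kinases. NF-kB signalling then runs through a canonical branch, in which IkB proteins are degraded and RelA, c-Rel and p50 enter the nucleus, and a non-canonical branch, in which the Nfkb2 product p100 is processed to p52 that pairs with RelB. NF-kB induces several of its own inhibitors, and signalling through TNFR2 is known to support Treg expansion and survival.

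The 6 libraries held 18186230 to 24319121 expected counts each, and 14313 genes had enough counts to be tested. With the agonist, 1854 genes (13.0% of those tested) were called higher and 1697 (11.9%) lower by edgeR's quasi-likelihood test, at an adjusted p below 0.05 over all genes. The changes were mostly small: 2949 of the 3551 called genes (83%) differed by less than 1.5-fold, 157 (1.10% of those tested) were called and at least 2-fold higher, and 108 (0.755%) were called and at least 2-fold lower. The median log2 fold change over all genes was -0.005. For 3373 of the called genes the 3 libraries of one group did not overlap with the 3 of the other. Without any regard to the test, the groups did not overlap for 19.6% of genes with the agonist higher and for 19.1% with the agonist lower.

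Transcripts of the Treg marker list, which includes general T cell genes such as Cd3e and Trac, were present in all 6 libraries. The 8 Treg markers (Foxp3, Cd4, Cd3e, Cd3g, Trac, Il2ra, Ctla4 and Ikzf2) were all above 0 and summed to 5308 to 5449 CPM (counts scaled to a common library total) in the controls and 5001 to 5239 CPM with the agonist. Of these 8, 4 were called lower and 0 higher, and 2 were lower without control replicate 1, control replicate 2 or TNFR2 agonist replicate 1. The 14 B cell markers summed to 273.0 to 287.4 CPM and 285.0 to 306.1 CPM, the 17 myeloid and dendritic cell markers to 17.53 to 18.85 CPM and 15.26 to 15.72 CPM, and the 11 markers of NK cells and of CD8 and gamma-delta T cells to 37.42 to 38.91 CPM and 38.97 to 40.60 CPM. The 12 conventional helper T cell markers summed to 263.3 to 283.9 CPM and 255.2 to 260.9 CPM, and the 12 erythroid and platelet markers to under 1 CPM in every library. Of 12 B cell markers tested, 1 was called higher and 0 lower (median log2 fold change 0.32). Of 10 myeloid and dendritic cell markers tested, 0 were higher and 1 lower (median -0.31). Of the 12 helper markers, 2 were higher and 2 lower, with 0 higher without control replicate 1 or TNFR2 agonist replicate 2 or 3. In the remaining 2 lists, 0 were called. The neutrophil genes S100a8 and S100a9 and the dendritic cell genes Clec9a, Siglech and Itgax were at 0 in all 6 libraries. The part of these sums in the results below was not tested. A single library of the 6 stood apart: transcripts at a ribosomal RNA locus on chromosome 17 made up 15260 CPM in TNFR2 agonist replicate 1, against 834.8 to 4156 CPM in the other 5. List counts at 36 h that moved by more than 1.5 times and by more than 1 gene when a single library was left out are given with the value, and smaller counts could move by 1 gene. In bulk RNA, fewer cells of one kind and less RNA per cell cannot be told apart.

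The promoter windows of several NF-kB regulators described below contain matches to the kappa B consensus, the 10-base motif that NF-kB dimers bind. Windows are the 250 bases before a RefSeq gene start (GRCm38.p6), written 5′ to 3′ on the gene's strand in lower case, with matches on either strand in capitals. The 4 shown are those of the NF-kB regulators named in the text whose window holds a match and overlaps no annotated exon. Overlapping matches run together in capitals. Nfkbia, Nfkbie and Tnip1 rose with the agonist, and Nfkbid fell.
Nfkbia, chr12:55492648-55492897, minus strand: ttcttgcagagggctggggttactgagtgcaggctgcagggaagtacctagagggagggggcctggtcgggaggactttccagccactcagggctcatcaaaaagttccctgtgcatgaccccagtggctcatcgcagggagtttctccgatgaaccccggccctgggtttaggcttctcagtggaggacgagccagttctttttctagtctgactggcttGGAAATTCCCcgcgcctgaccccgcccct
Nfkbie, chr17:45555450-45555699, plus strand: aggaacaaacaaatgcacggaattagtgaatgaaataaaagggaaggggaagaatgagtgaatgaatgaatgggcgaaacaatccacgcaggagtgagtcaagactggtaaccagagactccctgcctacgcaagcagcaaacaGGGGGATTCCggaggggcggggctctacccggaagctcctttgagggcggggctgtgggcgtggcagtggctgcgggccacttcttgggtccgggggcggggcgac
Tnip1, chr11:54962941-54963190, minus strand: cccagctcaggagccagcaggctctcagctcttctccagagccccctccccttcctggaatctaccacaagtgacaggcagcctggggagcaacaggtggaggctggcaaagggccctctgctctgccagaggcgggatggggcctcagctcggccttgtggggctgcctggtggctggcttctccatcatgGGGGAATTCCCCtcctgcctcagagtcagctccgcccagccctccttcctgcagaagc
Nfkbid, chr7:30422156-30422405, plus strand: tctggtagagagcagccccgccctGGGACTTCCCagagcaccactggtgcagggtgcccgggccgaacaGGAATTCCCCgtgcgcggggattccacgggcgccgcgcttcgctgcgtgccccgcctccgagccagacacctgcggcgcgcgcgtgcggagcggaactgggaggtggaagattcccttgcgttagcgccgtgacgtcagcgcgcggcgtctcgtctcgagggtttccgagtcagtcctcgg

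The match lay 29 bases before the start in Nfkbia and 106 bases before it in Nfkbie. Over all genes tested, 4.72% of 11738 windows (9156 genes with a window) held a match. The share was 7.42% in genes called higher and 3.90% in genes called lower. It was 10.1% in genes at least 2-fold higher, and none of the 82 windows of genes at least 2-fold lower held one. Among windows of NF-kB subunits, IkB proteins and relay genes, 8 of 25 (32%) held a match where the gene was called higher and 7 of 28 (25%) where it was not. Some genes have several windows: counted by gene, 6 of 19 called higher and 6 of 18 not called higher had a match, so the shares by gene were similar. These shares are descriptions of letters in the windows and carry no test.

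The receptor itself was lower. Tnfrsf1b (ENSMUSG00000028599, mm10 chr4:145213463-145246870) stood at 332.9, 316.1 and 335.2 CPM in the controls and 248.7, 250.1 and 261.0 CPM with the agonist. The groups did not overlap, and the log2 fold change was -0.37 ± 0.03 (SE, n = 3 per group; edgeR adjusted p = 3.9e-12). Of 23 TNF receptor genes tested, 8 were called higher and 3 lower, with a median log2 fold change of 0.06. Fas, the death receptor for Fas ligand, changed by the largest amount among those named here, from 22.26, 20.84 and 22.10 CPM to 39.12, 41.19 and 40.44 CPM (log2 fold change 0.89). Tnfrsf9, which encodes the costimulatory receptor 4-1BB, rose from 428.9 to 439.2 CPM in the controls to 562.4 to 588.7 CPM (log2 0.40), and Tnfrsf18, which encodes GITR, rose by 0.30. Tnfrsf4 (OX40) stood at 475.1 to 531.9 CPM and 522.3 to 560.1 CPM, and Tnfrsf25 (DR3) at 16.31 to 17.16 CPM and 18.17 to 19.43 CPM. Neither of these passed the test (adjusted p = 0.0844 and 0.0797).

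Among 14 ligands of the family, 5 were called higher and 6 lower. Tnf, the natural ligand of TNFR2, fell from 111.1, 112.6 and 125.1 CPM to 87.09, 91.35 and 86.85 CPM (log2 fold change -0.40), with no overlap. Its neighbours on chromosome 17 moved apart. Lta, which encodes lymphotoxin alpha, fell by 0.20 on the log2 scale, and Ltb, which encodes lymphotoxin beta, rose by 0.49. Tnfsf8, the CD30 ligand gene, rose from 144.5 to 149.4 CPM in the controls to 250.3 to 256.2 CPM (log2 0.78), whereas Cd40lg fell by 0.52.

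Between receptor and NF-kB, 13 of 34 TRAF, cIAP, linear ubiquitin and kinase genes were called higher and 4 lower, with a median log2 fold change of 0.07. Without TNFR2 agonist replicate 2 the number lower was 2. Traf1, an adaptor that NF-kB is known to induce, rose from 156.1 to 165.5 CPM in the controls to 242.7 to 249.4 CPM (log2 0.62). Birc2, which encodes the ubiquitin ligase cIAP1, rose by 0.45, and Tnip1, which encodes a partner of the A20 deubiquitinase, by 0.37. Tnfaip3, the A20 gene itself, named after its values were seen, rose by 0.38.

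Of the 5 NF-kB subunit genes, 4 were called higher and 0 lower, with the larger changes in the non-canonical pair. Nfkb2 (ENSMUSG00000025225, chr19:46304320-46312385) stood at 345.0, 318.0 and 341.3 CPM in the controls and 624.9, 626.2 and 616.8 CPM with the agonist, a log2 fold change of 0.90 ± 0.03 (SE, n = 3 per group; edgeR adjusted p = 1.15e-25). Every agonist library was above every control. Relb rose from 60.57, 55.30 and 58.62 CPM to 85.11, 87.22 and 84.05 CPM (log2 0.56). The canonical genes differed less: Rela rose by 0.23 and Nfkb1 by 0.21. Rel, which encodes c-Rel, stood at 333.9 to 354.0 CPM and 309.4 to 348.2 CPM and did not pass the test (log2 -0.05 ± 0.04, adjusted p = 0.485).

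Of 7 IkB genes, 5 were called higher and 1 lower. Nfkbia, which encodes IkB alpha, the inhibitor degraded on canonical signalling, rose from 186.3, 171.3 and 184.1 CPM to 306.0, 300.8 and 294.0 CPM (log2 0.73). Nfkbie, which encodes IkB epsilon, rose from 33.62, 28.37 and 32.16 CPM to 54.34, 54.44 and 55.13 CPM (log2 0.80). Both are among the windows printed above. Nfkbib (IkB beta) rose by 0.49, Bcl3, a nuclear IkB protein that binds p50 and p52, by 0.43, and Nfkbil1 by 0.27. The direction was opposite for Nfkbid, which encodes the nuclear protein IkBNS: it stood at 121.5, 116.2 and 124.5 CPM in the controls and 73.84, 78.51 and 75.59 CPM with the agonist (log2 -0.67, adjusted p = 9.05e-18), although its window holds 2 kappa B matches. Nfkbiz, another nuclear IkB gene, stood at 31.82 to 33.35 CPM and 29.71 to 32.01 CPM and did not pass the test (log2 -0.09 ± 0.10, adjusted p = 0.592).

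**Figure D1:**
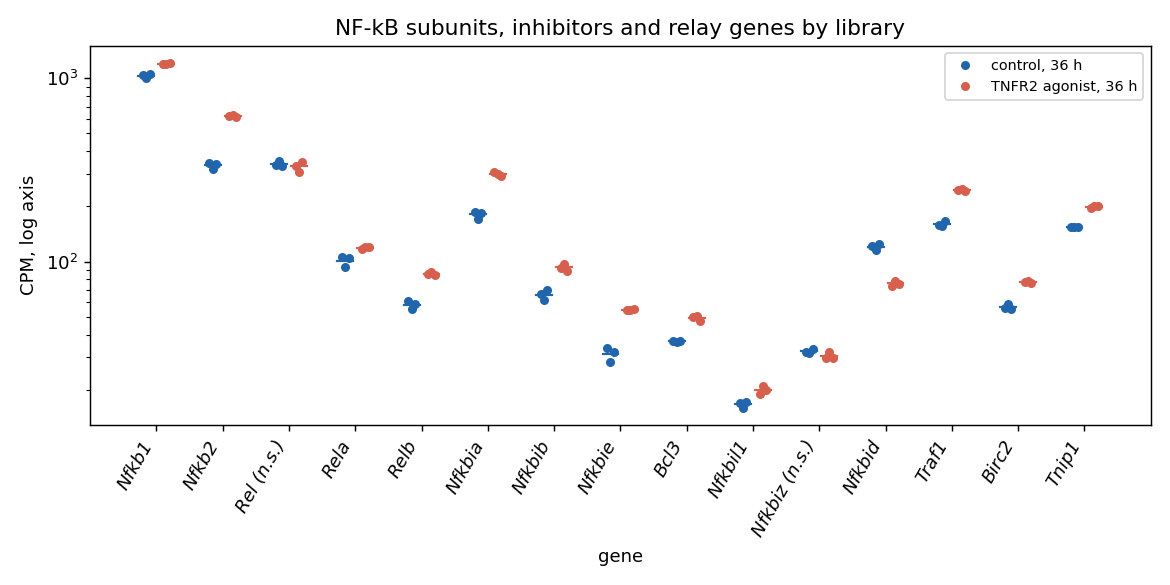
Level of each NF-kB subunit, IkB and relay gene in the 3 control (blue) and 3 TNFR2 agonist (red) libraries at 36 h, in CPM on a log axis; each point is a library, each short line a group mean, and n.s. marks genes that did not pass the test. Nfkb2 lies at 318.0 to 345.0 CPM in the controls and 616.8 to 626.2 CPM with the agonist, while Nfkbid lies lower with the agonist and the Rel libraries overlap.

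Of 32 NF-kB target genes tested, 22 were called higher and 4 lower, with a median log2 fold change of 0.26 beside -0.005 for all genes. Cd83, a surface glycoprotein of activated lymphocytes and dendritic cells, rose from 44.01, 44.41 and 42.55 CPM to 84.38, 90.57 and 82.70 CPM (log2 0.98). Irf5, a transcription factor of the interferon regulatory family, rose from 23.89 to 26.39 CPM to 49.94 to 51.03 CPM (log2 1.01). Icam1, the adhesion ligand of LFA-1, rose by 0.54, and Ccr7, the receptor that guides T cells into lymph nodes, by 0.43. Antigen presentation genes also rose: 17 of 24 were called higher and 1 lower (0 lower when any 1 of the 6 libraries was left out), with a median of 0.33. The peptide transporter gene Tap2 rose by 0.39, the loading factor gene Tapbp by 0.40 and the related Tapbpl by 0.62. The class I heavy chain gene H2-K1, named after its values were seen and one of a family with near-identical copies, went from 1194 to 1260 CPM to 1489 to 1601 CPM (log2 0.32). The costimulatory ligand gene Cd80 rose from 15.40 to 16.33 CPM to 27.84 to 31.46 CPM (log2 0.92).

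The largest rise among genes with at least 5 CPM on average in the higher group was in Scin (ENSMUSG00000002565, chr12:40059769-40134228), which encodes scinderin, a calcium-dependent protein that severs actin filaments. Scin stood at 14.01, 13.62 and 14.66 CPM in the controls and 119.4, 112.1 and 119.6 CPM with the agonist. That is a log2 fold change of 3.05 ± 0.06 (SE, n = 3 per group; edgeR adjusted p = 4.23e-36), or 8.29-fold. Ccdc184, a coiled-coil gene, rose from 2.330 to 2.829 CPM to 11.89 to 13.53 CPM (log2 2.32), and Mreg, which encodes the melanosome transport protein melanoregulin, from 4.600 to 5.241 CPM to 22.58 to 25.77 CPM (4.82-fold). The other 9 of the 12 largest rises lay between 2.84-fold (Cacnb3, a calcium channel subunit) and 3.67-fold (Cercam, named for an endothelial adhesion protein). They include the potassium channel gene Kcnh2 (3.55-fold), the sugar transporter gene Slc2a6 (3.47-fold) and the zinc finger factors Casz1 (3.40-fold) and Zbtb46 (3.33-fold), the latter known as a marker of classical dendritic cells. The caveolar coat gene Ptrf (3.32-fold), the semaphorin gene Sema4a (3.19-fold) and the neurotrophin receptor gene Ntrk3 (3.16-fold) complete the set. Of the 17 myeloid and dendritic cell markers, 8 to 10 were above 0 in the controls and 5 to 7 with the agonist, with the sums given above, and Clec9a, Siglech and Itgax were at 0 in all 6 libraries. Their part in the level of Zbtb46 was not tested.

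Of the 12 smallest log2 fold changes, chosen in the same way, 10 are described. Igfbp4, which encodes a binding protein for insulin-like growth factors, stood at 30.79 to 32.57 CPM and 11.94 to 13.45 CPM (log2 -1.31 ± 0.07, SE, n = 3 per group; edgeR adjusted p = 7.62e-21). Ly6c1, which encodes the surface protein Ly6C, stood at 23.08 to 23.39 CPM and 9.293 to 11.03 CPM (2.27-fold lower). Itih5, which encodes a hyaluronan-binding protein, was 2.30-fold lower. The widest change among the 10 was in Mical2, an actin-oxidising enzyme, at 4.929 to 5.792 CPM and 0.8306 to 1.804 CPM (4.23-fold lower). Emp1, an epithelial membrane protein gene, was 3.48-fold lower, the unconventional myosin gene Myo6 2.99-fold and the purine-degrading enzyme gene Xdh 2.63-fold. Fgl2, which encodes a secreted protein by which Tregs are known to restrain other cells, was 2.33-fold lower, the interferon-inducible Ifi209 2.17-fold and the cytokine gene Il1a 2.14-fold. Of these 10, Emp1, Fgl2, Ifi209 and Il1a have a promoter window with a match to the AP-1 motif TGANTCA.

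**Figure D2:**
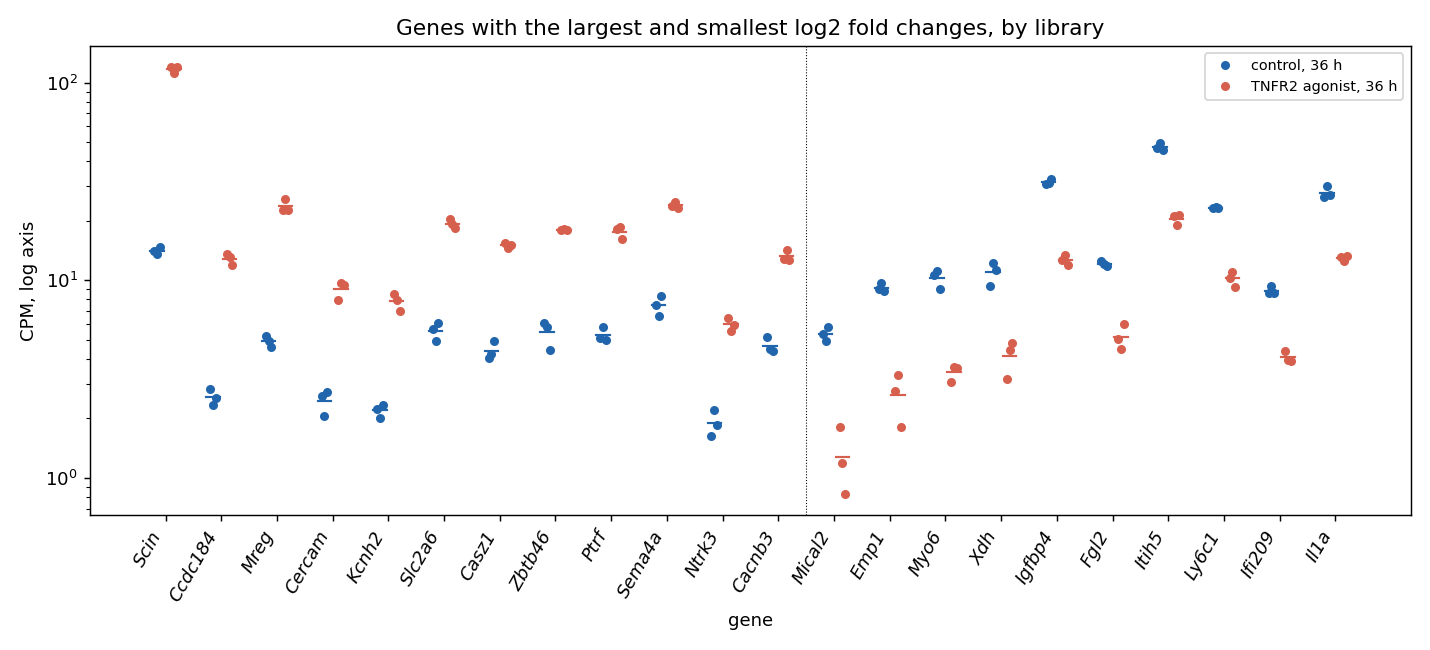
Level of the 12 genes with the largest log2 fold change and 10 of the 12 with the smallest in the 3 control (blue) and 3 TNFR2 agonist (red) libraries at 36 h, in CPM on a log axis; each point is a library and each short line a group mean. The groups do not overlap for any gene shown, as the choice of genes required, and Scin moves from 13.62 to 14.66 CPM up to 112.1 to 119.6 CPM.

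The motif TGANTCA, searched on both strands, was found in 4.23% of the windows of all genes tested. It occurred in 4.09% of windows of genes called higher and 5.47% of those called lower. Among genes at least 2-fold higher it occurred in 2.52% of windows, and among genes at least 2-fold lower in 16 of 82 (19.5%, 14 genes). These shares too are descriptions with no test. The windows of Il1a and Ifi209 are printed because they overlap no annotated exon and belong to the 12 smallest log2 fold changes, with the AP-1 match in capitals.
Il1a, chr2:129309973-129310222, minus strand: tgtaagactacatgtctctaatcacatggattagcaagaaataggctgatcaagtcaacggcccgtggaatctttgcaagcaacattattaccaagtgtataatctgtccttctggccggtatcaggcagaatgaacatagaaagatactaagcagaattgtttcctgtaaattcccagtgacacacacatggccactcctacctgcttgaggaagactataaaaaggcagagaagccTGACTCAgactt
Ifi209, chr1:173630609-173630858, plus strand: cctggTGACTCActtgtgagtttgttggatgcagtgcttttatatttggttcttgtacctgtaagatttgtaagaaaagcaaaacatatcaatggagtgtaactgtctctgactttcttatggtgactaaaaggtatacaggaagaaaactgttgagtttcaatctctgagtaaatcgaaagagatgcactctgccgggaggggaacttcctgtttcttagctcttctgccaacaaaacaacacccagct

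In Il1a the match lies 12 bases before the start, and in Ifi209 245 bases before it. Il1a stood at 26.34, 30.02 and 26.99 CPM in the controls and 13.13, 12.53 and 13.24 CPM with the agonist. Ifi209 stood at 8.580, 9.411 and 8.585 CPM and 4.397, 3.969 and 3.894 CPM. In both genes every agonist library was below every control.

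Transcripts for AP-1 and immediate early proteins were mostly called higher: 16 of 31 were, against 6 lower. Jun, a core AP-1 subunit, rose from 63.96, 56.64 and 59.60 CPM to 102.5, 103.7 and 100.3 CPM (log2 0.77), and Batf, an AP-1 family factor of effector T cells and Tregs, by 0.59. Junb, named after its values were seen, rose from 428.5 to 472.5 CPM to 715.2 to 771.5 CPM (log2 0.69). Nr4a1 and Nr4a2, nuclear receptors induced by T cell receptor signals, rose by 0.35 and 0.58, and the early gene Ier2 by 0.53.

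Treg genes did not move as a block. Foxp3 (ENSMUSG00000039521, chrX:7573644-7595245), the factor that defines the lineage, stood at 371.1, 368.0 and 367.2 CPM in the controls and 372.0, 355.4 and 382.6 CPM with the agonist. The agonist libraries lay on both sides of the controls (log2 0.00 ± 0.04, SE, n = 3 per group; edgeR adjusted p = 0.945). Of 29 core signature genes, 7 were called higher and 12 lower, with a median of -0.04. Of 28 effector Treg genes, 9 were called higher and 11 lower.

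Several genes for surface and secreted molecules of suppression fell. Nt5e, which encodes CD73, the enzyme that makes adenosine from AMP, fell from 136.7, 138.0 and 133.5 CPM to 75.87, 72.74 and 75.07 CPM (log2 -0.87). Its partner Entpd1, which encodes CD39 and was named after its values were seen, fell from 24.39 to 25.50 CPM to 13.55 to 14.15 CPM (log2 -0.85). Il10, also named after its values were seen, stood at 24.95, 25.77 and 26.62 CPM in the controls and 15.16, 17.84 and 13.50 CPM with the agonist (log2 -0.73). Of 21 inhibitory receptors and ligands, 9 were called lower and 3 higher. Tigit fell by 0.68 and Vsir, which encodes the checkpoint protein VISTA, by 0.65. Ctla4, named after its values were seen, fell from 517.9 to 541.0 CPM to 454.3 to 468.6 CPM (log2 -0.19). The Treg-enriched receptor gene Gpr83 fell by 0.59, Ikzf3 (Aiolos) by 0.65 and Icos, a costimulatory receptor gene, by 0.48. In the other direction, Bhlhe40, a repressor active in activated T cells, rose from 117.2, 112.1 and 113.2 CPM to 233.7, 231.4 and 230.7 CPM (log2 1.02), and Penk, the enkephalin precursor gene, by 0.62. Ebi3, which encodes a subunit of IL-35 and IL-27, rose from 16.13 to 20.87 CPM to 30.10 to 31.85 CPM (log2 0.70).

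Of 26 resting, naive and recirculation genes, 12 were called lower and 4 higher. Ccr7, described above, belongs to this list and is among the 4 that rose (log2 0.43). Foxp1, a quiescence factor named after its values were seen, fell from 236.5 to 258.6 CPM to 147.2 to 160.8 CPM (log2 -0.68). All 7 called members among 8 GIMAP GTPases, proteins tied to lymphocyte survival, were lower, with a median of -0.25. Gimap3 and Gimap4 both fell by 0.27. Satb1, a chromatin organiser named after its values were seen, went the other way (log2 0.44). Of 23 integrin and adhesion genes, 7 were called higher and 8 lower, among them Itga6, which fell by 0.59, and the tetraspanin gene Cd81, which rose by 0.42.

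Of 24 cytokine genes, 10 were called higher and 6 lower. Low but rising were Il9, from 0.7804 to 1.210 CPM to 2.818 to 3.790 CPM (3.40-fold), and Csf2, which encodes GM-CSF, from 2.133 to 2.588 CPM to 6.178 to 7.372 CPM (2.78-fold). Il13, named after its values were seen, went from 0.6722 to 1.109 CPM to 3.322 to 3.712 CPM (3.69-fold). Among 26 chemokine genes and receptors, 7 were called higher and 8 lower. Without TNFR2 agonist replicate 1 these were 4 and 5, and 5 were lower without TNFR2 agonist replicate 3 or control replicate 3. The bone marrow homing receptor gene Cxcr4 rose 2.11-fold and the interferon-induced chemokine gene Cxcl10 2.40-fold. Cxcr6, a receptor of tissue-resident T cells, was 1.74-fold lower. The granzyme B inhibitor gene Serpinb9 rose by 0.69 and the related Serpinb6b by 0.56, in a list of 11 cytotoxic genes with 2 called higher and 1 lower. Those shares were near the 13.0% higher and 11.9% lower over all genes tested.

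In the IL-2 receptor, JAK and STAT list, 13 of 30 members were called higher and 9 lower. Il2ra, which encodes CD25 and was named after its values were seen, stood at 2849 to 2914 CPM and 2593 to 2753 CPM (log2 -0.10, adjusted p = 0.0191), a call that did not hold under 6 alternatives. The IL-6 receptor genes Il6ra and Il6st, the latter encoding gp130, fell by 0.64 and 0.46. Among 16 TGF-beta pathway genes, 3 were called higher and 4 lower, shares above the 13.0% and 11.9% over all genes. Tgfbr1, the type I receptor gene, fell by 0.52 and the signal transducer gene Smad3 by 0.39. Of 22 helper lineage transcription factors, 8 were called higher and 7 lower, and Gata3, which directs type 2 helper cells, rose by 0.39. Of 34 interferon-stimulated genes, 5 were called higher and 7 lower, shares near the 13.0% and somewhat above the 11.9% over all genes. Isg20 was 1.93-fold lower and Ifit2 1.36-fold lower.

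Death and survival genes were called more often higher than lower. Of 13 anti-apoptotic genes, 5 were called higher (3 without control replicate 2) and 2 lower, and of 19 pro-apoptotic genes, 6 were higher and 2 lower. Both shares higher were above the 13.0% over all genes tested, and both shares lower were near the 11.9% over all genes. Bcl2, the founding survival gene, fell from 105.1, 115.1 and 106.2 CPM to 72.94, 75.37 and 76.83 CPM (log2 -0.54), whereas Bcl2l1, which encodes BCL-XL, rose by 0.18. Bcl2l11, which encodes the killer protein BIM, fell by 0.54, and Bax rose by 0.37. Of 19 p53 targets, 11 were called higher and 1 lower, with a median of 0.22. Phlda3, an inhibitor of AKT, rose from 20.75 to 25.88 CPM to 42.93 to 44.30 CPM (log2 0.86), Sesn2 by 0.39 and Gtse1 by 0.32. Cdkn1a, which encodes the cell cycle inhibitor p21, rose from 141.8, 128.7 and 157.5 CPM to 207.1, 219.8 and 208.3 CPM (log2 0.57).

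Cell cycle lists differed from one another at 36 h. G1 and replication genes exceeded the 13.0% called higher over all genes tested, whereas G2 and mitosis genes did not. Of 17 genes for G1 cyclins, CDKs and CDK inhibitors, 6 were called higher and 0 lower. The 6 include the D-type cyclin genes Ccnd2, which rose from 1196 to 1235 CPM to 1578 to 1651 CPM (log2 0.41), and Ccnd3 (log2 0.31). They also include the inhibitor gene Cdkn1a (log2 0.57), which is counted among the p53 targets as well. Of 35 replication genes, 11 were called higher and 1 lower, with a median of 0.05, and Gins2 of the replicative helicase rose by 0.29. The number higher was 7 without control replicate 2 and 6 without the libraries above 10000 CPM at the ribosomal RNA locus, and the number lower was 0 when any 1 of the 6 libraries was left out. Of 31 G2 and mitosis genes, 3 were called higher (Ccnb2, Nusap1 and Ube2c) and 1 lower (Kif11), shares below the 13.0% and 11.9% over all genes tested. None of these 4 changed by more than 1.11-fold, and none of the 4 calls held under every alternative. The number higher was 0 without control replicate 1, control replicate 3 or TNFR2 agonist replicate 3 and 1 without control replicate 2 or TNFR2 agonist replicate 2, and the number lower was 3 without TNFR2 agonist replicate 3.

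Of 24 glycolysis genes, 15 were called higher and 3 lower, with a median of 0.12. Slc16a3, the lactate exporter gene, rose from 93.41, 83.35 and 96.57 CPM to 133.8, 144.6 and 141.3 CPM (log2 0.62), the glucose transporter gene Slc2a1 by 0.38 and the enzyme gene Tpi1 by 0.26. Of 20 hypoxia response genes, 10 were called higher and 2 lower, and the number higher was 5 without TNFR2 agonist replicate 1 and 6 without control replicate 3 or TNFR2 agonist replicate 3. Adm, the adrenomedullin gene, rose from 2.868 to 3.246 CPM to 5.749 to 7.060 CPM (2.08-fold), and Ddit4, a brake on mTORC1, by 0.51. Egln3, an oxygen-sensing hydroxylase gene, fell by 0.29. Oxidative phosphorylation had 10 of 36 members higher and 0 lower, but 2 higher without control replicate 2 and 4 without TNFR2 agonist replicate 2. Its member Atp5d, a subunit of ATP synthase, rose by 0.28. Among lipid genes, Srebf1 rose by 0.32 and Srebf2 by 0.14, while Elovl6 fell by 0.28 and Hmgcs1 by 0.20. Of 27 cholesterol genes, 2 were called higher (1 without control replicate 2 or TNFR2 agonist replicate 2) and 3 lower. These shares are below the 13.0% higher and 11.9% lower over all genes tested. Of 16 fatty acid genes, 3 were called higher (5 without control replicate 1) and 6 lower, shares above those of all genes. Of 30 ribosome biogenesis and MYC target genes, 5 were higher and 6 lower, beside 13.0% and 11.9% of all genes tested. There was 1 higher without control replicate 2, and there were 3 and 3 without TNFR2 agonist replicate 1, and 2 and 1 without TNFR2 agonist replicate 2. Of 27 ER stress and amino acid response genes, 4 were higher and 3 lower (1 lower without control replicate 1 or TNFR2 agonist replicate 2), shares near those of all genes. Of 14 chaperone genes, 1 was higher and 0 lower, shares below those of all genes. For the chaperones, DESeq2 gave 2 higher and 2 lower.

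**Figure D3:**
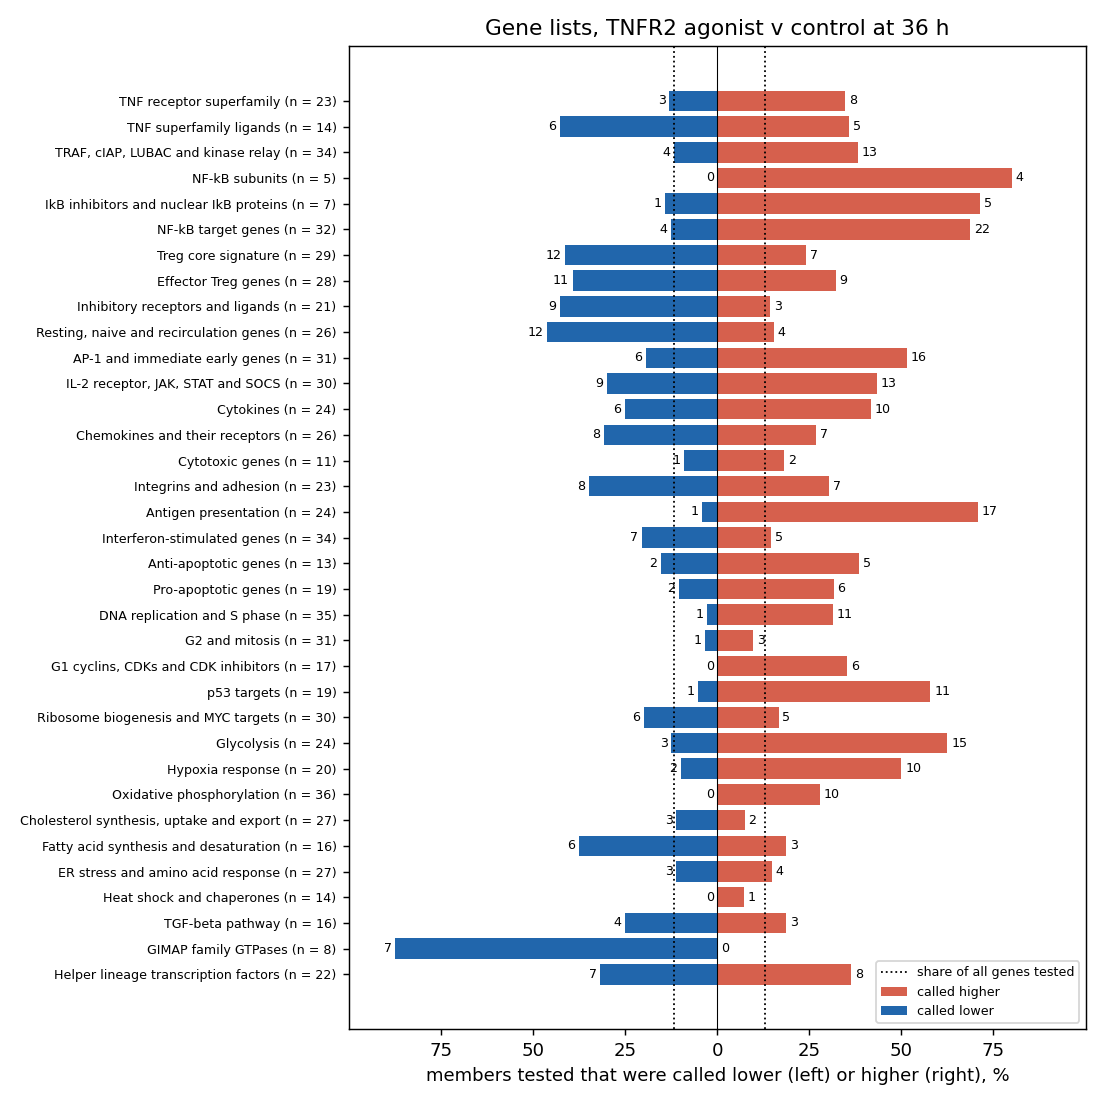
Share of the tested members of each gene list called higher (right, red) or lower (left, blue) with the TNFR2 agonist at 36 h, in %, with the number called beside each bar and the number tested in brackets; dotted lines mark the 13.0% and 11.9% of all genes tested. NF-kB subunits, IkB genes, NF-kB targets and antigen presentation reach furthest to the right, and GIMAP GTPases (7 of 8) furthest to the left.

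The agonist had been tested at 18 h as well, in 3 libraries against 3 controls of that time, and the difference between its effects at the 2 times was tested as an interaction. At 18 h, 4456 genes (31.1%) were called. Of the 3551 genes called at 36 h, 2268 (63.9%) were also called at 18 h, which is 50.9% of the 18 h calls. Of those 2268, 2211 had the same direction and 57 the opposite one. The interaction called 958 genes (6.69%), 527 (3.68%) with a higher and 431 (3.01%) with a lower log2 fold change at 36 h than at 18 h. DESeq2, with its own scaling, called 449 and 571. Among the 299 of these that were called in the same direction at both times, 267 had a smaller effect at 36 h. The interaction count was 242 without the libraries above 10000 CPM at the ribosomal RNA locus (control 18 h replicates 1 and 2, TNFR2 agonist 18 h replicate 1 and TNFR2 agonist 36 h replicate 1), which also leaves 1 control library at 18 h.

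Nr4a1 and Nr4a2 were lower with the agonist at 18 h and higher at 36 h. Nr4a2 stood at means of 35.15 and 22.95 CPM in control and agonist at 18 h, and at 34.04, 34.28 and 32.29 CPM against 50.79, 48.10 and 51.19 CPM at 36 h. Tnfrsf9 and the integrin gene Itgav turned in the same direction, from -0.17 to 0.40 and from -0.36 to 0.20, as did the polyamine enzyme gene Odc1, from -0.16 to 0.21, and Ddit4, from -0.18 to 0.51. The kinase gene Pim2, which supports survival, went the other way, from 0.42 to -0.29. S1pr1, the receptor for egress from lymph nodes, and the signalling adaptor gene Sla were lower at 18 h (-0.67 and -0.69) and did not pass the test at 36 h (0.11 and -0.05). Slc2a1 and Slc16a3 showed a log2 fold change of -0.02 each at 18 h, against 0.38 and 0.62 at 36 h.

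Other differences lay in the size of a change that kept its direction. Igfbp4 had a log2 fold change of -0.68 at 18 h and -1.31 at 36 h. Cxcr4 rose by 0.35 and then 1.08. Smaller at 36 h were Icam1 (1.00 at 18 h and 0.54 at 36 h), the calcium channel gene Cacnb3 (2.80 and 1.51) and Adm (2.15 and 1.05). The same held for the oxidase subunit gene Ncf1 (1.28 and 0.60), the endocytic receptor gene Ly75 (0.89 and 0.28), the sugar transporter gene Slc35b4 (0.93 and 0.36) and the phosphatase gene Ptpn22 (-1.17 and -0.46). Scin (3.16 and 3.05) and Nfkb2 (1.03 and 0.90) did not pass the interaction test. No NF-kB subunit did, and Bcl3 was the only IkB gene that did (0.70 and 0.43).

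**Figure D4:**
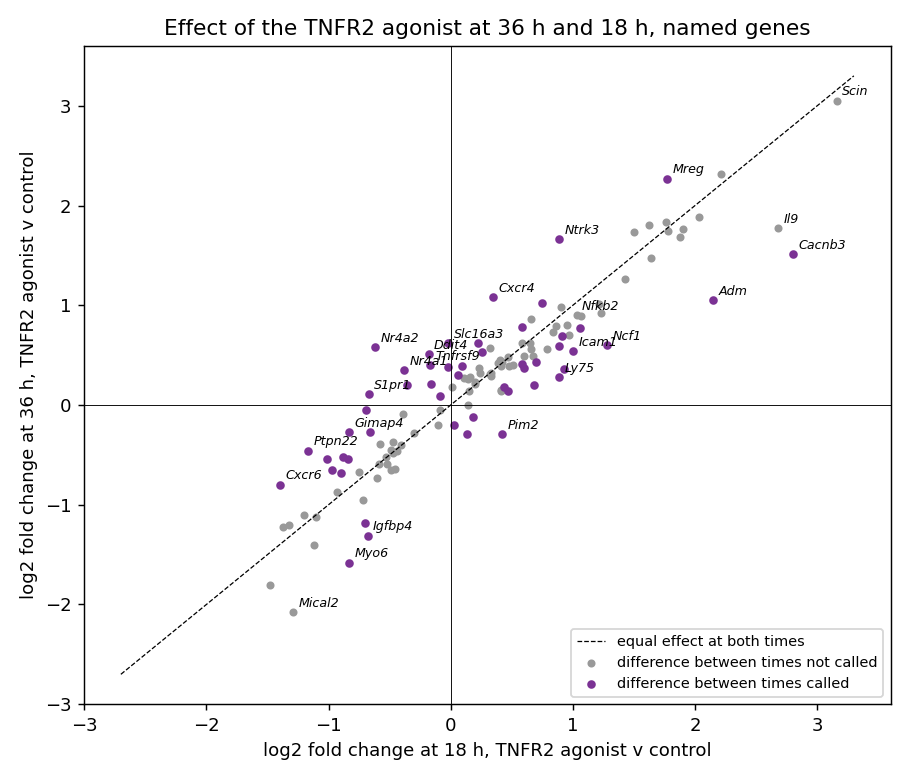
Log2 fold change of TNFR2 agonist against control at 18 h (horizontal) and at 36 h (vertical) for the genes named in the text by rule; purple points passed the test of the difference between the times, grey points did not, and the dashed line marks equal effects. Scin lies near the line, Cacnb3 and Adm lie below it, and Nr4a2 and Pim2 lie in the quadrants of opposite sign.

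The series holds 3 other groups that received agonists of related receptors for 36 h: the antibody 3H3 against 4-1BB at 10 µg/ml, TL1A, the ligand of DR3, at 12 ng/ml, and OX40L, the ligand of OX40, at 100 ng/ml. The agonists differ in kind and dose, and all share the control libraries, so the groups were compared directly. The TNFR2 group differed from the 4-1BB group in 530 genes (3.70% of those tested), of which 324 (2.26%) were higher and 206 (1.44%) lower. From the DR3 group it differed in 509 (3.56%), 330 (2.31%) higher and 179 (1.25%) lower, and from the OX40 group in 575 (4.02%), 327 (2.28%) higher and 248 (1.73%) lower. Without TNFR2 agonist replicate 2 the 3 totals were 231, 263 and 260, and they were 233, 177 and 164 without the libraries above 10000 CPM at the ribosomal RNA locus (TNFR2 agonist replicate 1, DR3 replicate 3 and OX40 replicate 2).

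Scin averaged 117.1 ± 4.28 CPM (SD, n = 3) with the TNFR2 agonist, 140.9 CPM with the 4-1BB antibody, 66.57 ± 1.02 CPM with TL1A and 61.60 ± 2.82 CPM with OX40L. It was below the 4-1BB group (log2 -0.27, edgeR adjusted p = 0.000378) and above the DR3 and OX40 groups (0.81 and 0.93). Mreg averaged 23.67, 26.86, 13.81 and 15.22 CPM in the TNFR2, 4-1BB, DR3 and OX40 groups. The TNFR2 and 4-1BB means of Mreg did not pass the test (log2 -0.18, adjusted p = 0.115). Nfkb2 was higher with the TNFR2 agonist than with TL1A (0.27) or OX40L (0.14), and its difference from the 4-1BB group did not pass the test (-0.03, adjusted p = 0.682). Nfkbia was higher than in the DR3 and OX40 groups by 0.23 each.

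Against the 4-1BB antibody, Adm and Cacnb3 were lower with the TNFR2 agonist (log2 -1.07 and -0.75), as was Dennd5a, a regulator of vesicle traffic (-0.40), while Mxd1, an antagonist of MYC, was higher (0.41). Mxd1 averaged 131.5 CPM with the TNFR2 agonist, against 94.62 CPM in the controls and 99.17 CPM with the antibody. Against TL1A, Bhlhe40 (0.39) and Penk (0.46) were higher and the diacylglycerol kinase gene Dgkh was lower (-0.51). Against OX40L, Cd83 (0.43) and the guanylate-binding protein gene Gbp5 (0.45) were higher. Gbp5 averaged 176.6 CPM with the TNFR2 agonist, 153.7 CPM in the controls and 129.4 CPM with OX40L. Of 24 antigen presentation genes, 7 were higher than in the 4-1BB group, 16 than in the DR3 group and 14 than in the OX40 group, with 0 lower in each. Against DR3 the count was 6 without TNFR2 agonist replicate 2 and 8 without DR3 replicate 2 or 3, and against OX40 it was 6 without TNFR2 agonist replicate 2 or OX40 replicate 2 and 5 without OX40 replicate 1. Without the libraries above 10000 CPM at the ribosomal RNA locus, 5, 3 and 3 were higher. Of 31 AP-1 and immediate early genes, 13, 10 and 9 were higher and 0, 2 and 1 lower, with 8 higher against 4-1BB without 4-1BB replicate 1. Without the libraries above 10000 CPM at that locus, 9, 6 and 3 were higher. Foxp3 did not pass the test against any of the 3 groups (adjusted p = 0.953, 0.483 and 0.602).

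**Figure D5:**
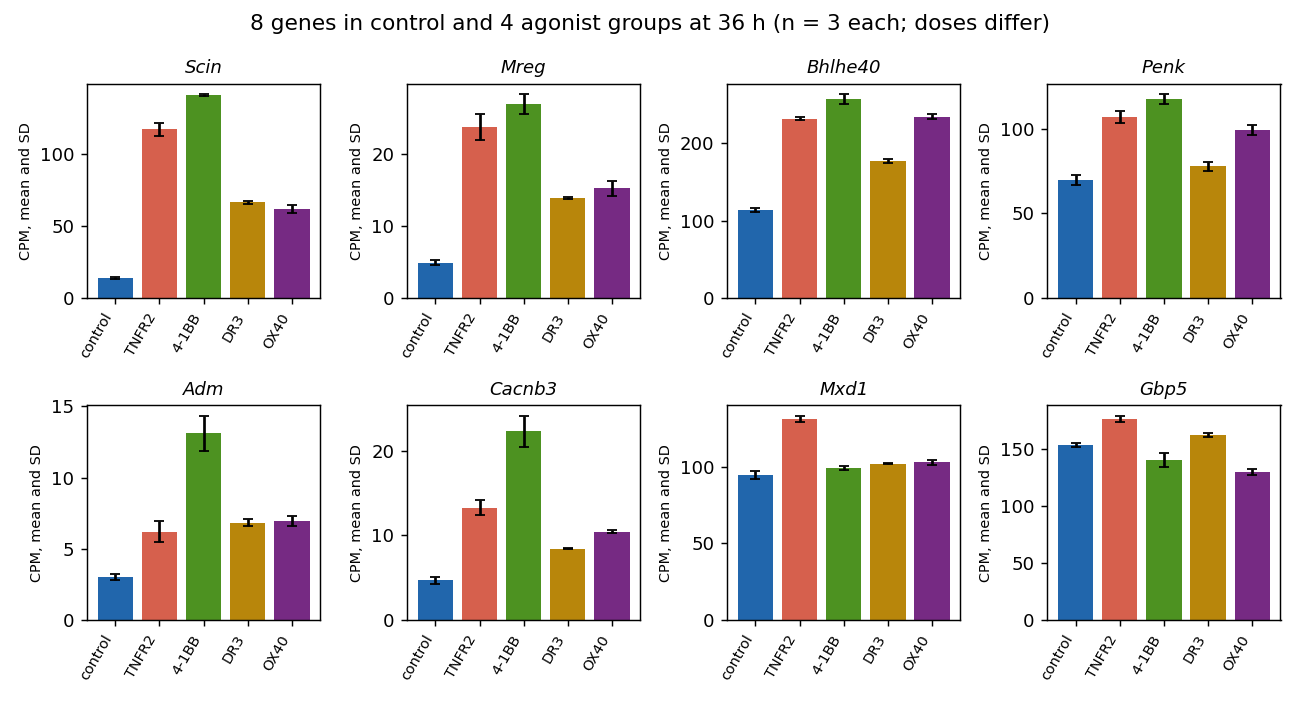
Mean level in CPM with SD (n = 3 libraries each) of 8 genes at 36 h in the control and the TNFR2, 4-1BB, DR3 and OX40 agonist groups, whose doses differ. Scin and Mreg are highest in the 4-1BB and TNFR2 groups, Adm and Cacnb3 in the 4-1BB group, and Mxd1 and Gbp5 in the TNFR2 group.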

How the data were processed

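RNA was extracted with a NucleoSpin RNA XS kit and made into cDNA libraries with the SMART-Seq v4 kit, per the labels' protocols. This kit does not mark strand, so overlapping and antisense genes cannot be told apart. Per the submitters' processing notes, the tools were STAR 2.5.3a, RSEM 1.2.28, Trimmomatic and FastQC, with the mm10 build. The authors deposited RSEM expected counts per gene, which were rounded to whole numbers here. RSEM divides reads among near-identical genes, so values in families such as MHC class I, Ly6 and GIMAP are less certain. Of 54087 listed genes, 53973 matched 1 GENCODE M21 gene. Ribosomal RNA loci were kept.

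All 32 libraries entered 1 fit in edgeR 4.0.16 (R 4.3.3) with a mean for each of 11 groups, TMM scaling, its default filter on low counts (14313 genes left) and the robust quasi-likelihood F test with Benjamini-Hochberg adjustment over all genes. Log2 fold changes come from that fit, and CPM values use TMM-scaled library sizes. Each standard error was derived as the absolute log2 fold change divided by the square root of the F statistic. Groups came from the labels. The comparison, its gene lists and the named genes were chosen with earlier results of these data known. Genes were named by rule: called genes without overlap between groups and with a mean of 5 CPM or more in the higher group (12 at each end of the log2 fold changes), up to 4 members per list by p, every NF-kB subunit and IkB gene, Foxp3 with selected receptors and ligands, and genes of lowest p elsewhere (10 for the test between times, 5 for each other agonist). Symbols of predicted genes, clones and pseudogenes and genes on chromosome 18 were not taken. Genes outside that rule are marked in the text, and a few within it are not reported here. On counts simulated for this comparison (14128 genes), the fit called 66% of genes changed 1.25-fold, 90% at 1.5-fold, 96% at 2-fold and 100% at 4-fold, and 9 unchanged genes (4.86% of calls). The simulation changed 50 genes at each size, far fewer than were called in the data. Genes with low mean counts were not among those changed, so these shares do not cover them. The difference between libraries at the ribosomal RNA locus was not simulated. Replicate libraries differed by more than sampling noise, so none was counted as a duplicate. Promoter windows are from RefSeq (GRCm38.p6). The alternatives were DESeq2 1.42.0, its size factors, other filters, a replicate block, a covariate for the ribosomal RNA locus, thinning to equal depth and leaving out libraries, of which leaving out the libraries above 10000 CPM at that locus was chosen after seeing the data.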

Additional observations from a re-analysis of the deposited data

Results flagged for a closer look

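The effect of the TNFR2 agonist differed between 36 h and 18 h, by the interaction test in edgeR at an adjusted p below 0.05, for 958 genes, 55 of them named above. The values below are the log2 fold change at 36 h minus that at 18 h, each against the control of its own time (n = 3 per group). Under a covariate for the ribosomal RNA locus 44 of the 55 passed, and without the libraries above 10000 CPM at that locus (control 18 h replicates 1 and 2, TNFR2 agonist 18 h replicate 1 and TNFR2 agonist 36 h replicate 1) 30 passed, all 55 keeping their sign. The 30 are marked as kept below.

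Kept receptor and early gene differences were 0.57 for Tnfrsf9, 0.24 for Tnfrsf18, 0.73 for Nr4a1, 1.19 for Nr4a2, 0.40 for Penk and 0.27 for Bhlhe40. Other kept differences above 0 were 0.73 for Cxcr4, 0.56 for Itgav, 0.30 for Gata3, 0.41 for Ctla4, 0.43 for Satb1, 0.37 for Odc1 and 0.68 for Ddit4. The transporter genes Slc2a1 and Slc16a3 differed by 0.40 and 0.64, Gimap3 and Gimap4 by 0.38 and 0.56, and S1pr1, Sla and Ptpn22 by 0.78, 0.65 and 0.71, all kept.

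Kept differences below 0 were -0.46 for Icam1, -1.29 for Cacnb3, -0.63 for Igfbp4, -0.72 for Pim2, -1.10 for Adm and -0.41 for Egln3. Ncf1 (-0.68), Ly75 (-0.61), Slc35b4 (-0.57) and Gbp5 (-0.48) complete these.

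The remaining 25 did not pass without those libraries. Their differences were 0.18 for Tnfrsf4, -0.23 for Lta, 0.20 for Tnfsf8, 0.36 for Cd40lg, -0.27 for Bcl3, -0.23 for Tnip1 and -0.23 for Tnfaip3. They were 0.50 for Mreg, 0.77 for Ntrk3, -0.75 for Myo6, -0.48 for Ly6c1, 0.21 for Tigit, 0.32 for Vsir, 0.66 for Il10 and 0.60 for Cxcr6. They were -0.29 for Jun, -0.31 for Batf, 0.27 for Ier2, -0.22 for Serpinb9, 0.30 for Bcl2, -0.27 for Bcl2l1 and 0.47 for Bcl2l11. The cell cycle genes Ccnd2, Kif11 and Nusap1 differed by -0.16, -0.30 and -0.33.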

How the results depend on the processing

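The count for TNFR2 agonist v control at 36 h (3551) stayed within 1.5 times under all alternatives run, from 2403 to 3418 when 1 of the 6 libraries was left out and 2680 without the libraries above 10000 CPM at the ribosomal RNA locus. Genes called and at least 2-fold changed were 265, but 75 where at least 10 CPM in at least 3 libraries was required. The test of 36 h against 18 h (958) called 502 with the ribosomal RNA locus covariate, 242 without the high libraries and 687 to 1133 when 1 library was left out. Against 4-1BB (530) the counts were 993 with only the libraries of the groups compared, 233 without the high libraries and 231 to 531 when 1 was left out, with 296, 231, 318, 324 and 285 without TNFR2 replicates 1 and 2 and 4-1BB replicates 1, 2 and 3. Against DR3 (509) they were, in the same order, 856, 177 and 263 to 503, with 263, 292 and 332 without TNFR2 replicate 2, DR3 replicate 2 and DR3 replicate 3. Against OX40 (575) they were 164 without the high libraries and 260 to 706 when 1 was left out, with 364, 260, 276 and 302 without TNFR2 replicates 1 and 2 and OX40 replicates 1 and 2. Fits without some libraries hold fewer samples, a library left alone in its group was assumed to vary like the other groups, and the cause of the other shifts was not tested. Of 138 named genes 131 were called, and 125 kept the call and direction under all alternatives run. Calls were lost somewhere for Ccnb2, Il2ra, Kif11, Nfkbil1, Nusap1 and Ube2c. No called gene reversed. Foxp3 (0.005), not called, was -0.007 with no filter, -0.002 with thinning, -0.019 to 0.034 when 1 library was left out (lowest without TNFR2 replicate 3) and -0.002 without the high libraries.

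The labels give the groups the same replicate numbers. Same-numbered control and TNFR2 agonist libraries at 36 h correlated at 0.137, 0.0692 and 0.024 in their deviations from the group means. Control replicates 1 and 2 correlated best with the agonist library of their own number, and control replicate 3 with TNFR2 replicate 2 (0.0393). Whether the numbers mark pairs was thus not settled, and the main fit took none as pairs. With a replicate block, 3515 genes were called over all libraries, against 3551 without it. Over the 6 libraries alone, 2777 were called with the block and 3650 without it. For the test between times and the tests against 4-1BB, DR3 and OX40, the block gave 922, 515, 485 and 541. The shallowest of these 6 libraries held 18186230 expected counts, so values under 1 CPM are the least precise.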

Other observations

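The series also holds 3 libraries of resting Tregs, which enter no comparison above. Their levels are given beside the 36 h means as values with no test, since culture and time differ from the stimulated groups. Igfbp4 averaged 160.1 ± 8.49 CPM (SD, n = 3) in resting Tregs, 31.47 CPM in the 36 h controls and 12.71 CPM with the TNFR2 agonist. Bcl2 averaged 473.9, 108.8 and 75.05 CPM in the same order, so for these genes the agonist group lay further from resting cells than the controls did. Scin lay at 5.038 ± 1.37 CPM (SD, n = 3) in resting cells and Mreg at 0.0465 CPM. Other genes lay on the side of resting cells: Nfkbia averaged 337.9 CPM in resting Tregs, 180.6 CPM in the controls and 300.3 CPM with the agonist, Junb 720.5, 456.2 and 738.2 CPM, and Satb1 338.5, 83.95 and 113.9 CPM. Tnfrsf1b averaged 377.3 ± 10.5 CPM (SD, n = 3) in resting cells, 328.1 CPM in the controls and 253.3 CPM with the agonist.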
